A study of Homo sapiens with 9 samples.

Results

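The genes described are 35 genes of cholesterol and fatty acid synthesis and their regulators, chosen by name, out of 64253 gene identifiers in the deposited count files. They comprise 6 enzymes of the mevalonate arm, 11 enzymes from squalene to cholesterol, 5 genes of sterol sensing and regulation, 9 genes of fatty acid synthesis and activation, and 4 genes of the liver X receptor (LXR) branch. The RNA came from IMR90, a fibroblast line from human fetal lung with a limited number of divisions in culture, in 9 libraries named a, b and c within each of 3 groups. The control group carried the pLKO.1 lentiviral vector, described as empty in the sample labels and as GFP vector in the treatment protocol. The shRRM2 group carried 1 short hairpin RNA against RRM2, a subunit of the enzyme that makes deoxyribonucleotides, and the labels call it senescence. The shRRM2/shp16 group carried that hairpin and 1 hairpin to p16, the product of CDKN2A that holds back the cell cycle, and the labels call it senescence-bypass. All groups were grown at 2% oxygen, used at population doubling 30, infected a second time 24 hours after the first and kept in 3 ug/mL puromycin for 7 days. No group carried the p16 hairpin alone, each gene was targeted by a single hairpin, and the labels do not say whether the replicates were separate cultures or infections. The p-values below therefore measure the spread between these libraries, which may be technical.

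Cholesterol and fatty acids are both built from acetyl-CoA. SREBP2, encoded by SREBF2, and SREBP1, encoded by SREBF1, are transcription factors held in the endoplasmic reticulum by SCAP and INSIG proteins while sterols are plentiful. When sterols fall they are carried to the Golgi, cleaved, and turn on the genes of cholesterol synthesis (mainly SREBP2) and of fatty acid synthesis (mainly SREBP1). LXR is a nuclear receptor for oxysterols that acts in the other direction, turning on cholesterol export through ABCA1 and ABCG1 and also transcription of SREBF1. In fibroblasts, dividing cells need both products for new membrane.

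Gene-assigned counts ranged from 15770895 to 24873291 per library. The RRM2 hairpin check gave 481, 491 and 484 CPM (counts relative to the scaled total of the library) in control, 60.0, 63.2 and 63.2 in shRRM2, and 181, 175 and 176 in shRRM2/shp16, so the 2 hairpin groups also differed from each other in RRM2 (log2 fold change 1.51, edgeR adjusted p = 7.9e-34). CDKN2A read 5.95, 6.15 and 5.96 CPM in control, 6.79, 6.75 and 5.97 in shRRM2, and 4.33, 3.93 and 4.57 in shRRM2/shp16, where it was lower than in shRRM2 (edgeR adjusted p = 7.0e-05). MKI67, CCNA2 and LMNB1, genes of dividing cells, averaged 1036, 119 and 178 CPM in control, 322, 34.7 and 46.9 in shRRM2, and 389, 46.7 and 70.3 in shRRM2/shp16. All 10 fibroblast markers had at least 10 counts in every library, with a summed level of 37935 to 39109 CPM in control, 40940 to 41893 in shRRM2 and 29474 to 30138 in shRRM2/shp16. The 6 epithelial markers summed to between 23.9 and 25.2, 12.1 and 13.4, and 3.29 and 5.21 CPM in the same order, mostly CLDN4, with KRT5 and SFTPC at 0. Leukocyte, endothelial, adipocyte and hepatocyte markers each summed to less than 6 CPM in every library. The share of uniquely aligned reads in no annotated feature also moved with the groups, from 17.65 to 18.92% in control to 27.7 to 28.83% in shRRM2 and 23.48 to 24.35% in shRRM2/shp16. The part of these differences in the results below was not tested.

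All 35 genes passed the filter on low counts. Levels between genes are compared per length, as CPM per kilobase of the gene length recovered from the authors' log2 RPKM table. On that scale ACLY, which splits citrate into acetyl-CoA, was the most abundant in control at 116, followed by the stearoyl-CoA desaturase SCD at 64.5 and the fatty acid synthase FASN at 31.1. The most abundant cholesterol enzyme was FDPS, which makes farnesyl diphosphate, at 22.4. ABCG1, TM7SF2, NR1H3 and MVK lay between 0.996 and 1.57. The 3 lowest were CYP51A1, the lanosterol demethylase, at 0.746, HSD17B7 at 0.735 and ACACA, the acetyl-CoA carboxylase of the cytosol, at 0.134.

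**Figure D1:**
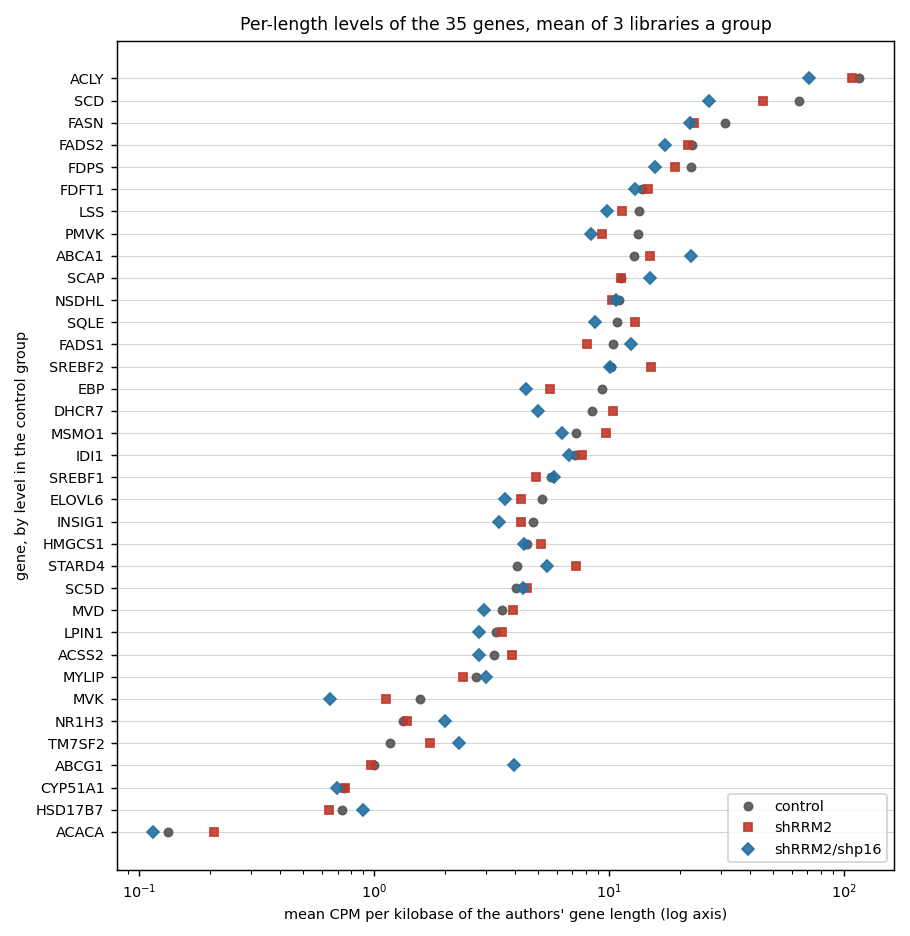
Mean CPM per kilobase of gene length (log axis) of each of the 35 genes in the 3 groups, ordered by the level in control. ACLY lies at the top in all groups and ACACA at the bottom, and ABCG1 moves up the order from 0.996 in control to 3.94 in shRRM2/shp16.

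The levels of CYP51A1 and ACACA are uncertain. In the authors' deposited table the shRRM2 group has an FPKM value of 20.75 for CYP51A1 and 3.301 for ACACA, which are 27.5 and 15.8 times the per-length levels from the counts (0.755 and 0.209), against a median ratio of 2.44 over the 35 genes. The order of the other genes depends on the scale too. By the authors' FPKM values for shRRM2, ACLY is again first at 247.1. FADS2 (120.4), FDFT1 (60.54) and FDPS (56.43) lie there above SCD (39.24) and FASN (29.35). CYP51A1 had 42 to 71 counts per library and, in GENCODE 29, overlaps 2 coding genes annotated on the same strand. Neither of these 2 genes has an entry in the count files, and the cause of the low CYP51A1 count was not tested. ACACA had 24 to 46 counts per library, and a second identifier of the same name in the count files took another 9 to 25. Named pseudogenes exist for FDPS (8), CYP51A1 (3), HSD17B7 (2), SCD (1) and FADS2 (1), and TM7SF2 and FADS2 overlap the coding genes VPS51 and FEN1 on the same strand, so their counts may include or lose reads of these copies and neighbours.

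Promoter windows from RefSeq (GRCh38.p14, 250 bases before to 50 bases after the start) were found for 31 of the 35 genes and not for FDFT1, SQLE, FASN and ABCG1. Only the first window listed for each of the 31 was used, while the shares over all windows count every window. Some windows lie away from the start of the gene in GENCODE 29. That of IDI1 (chr10:1056655-1056954) lies outside the gene (chr10:1039152-1049170). Those of LPIN1, FADS1, FADS2, ACLY and DHCR7, among others, lie wholly inside theirs. The sterol regulatory element core TCACNCCAC, a form of the site that SREBPs bind, was searched on both strands. It lay in 1 of the 31 windows (3.23%), that of SREBF2, and in 396 of 35116 windows of the table (1.13%). Only exact matches were searched, so a window without a match is not shown to lack an SREBP site. The CCAAT box bound by NF-Y, a factor known to act with SREBPs, lay in 19 of 31 (61.3%) and in 34.6% of all windows. The E-box CACGTG lay in 5 of 31 (16.1%) and in 7.26% of all windows. No 2 of these matches overlapped in the stretches shown. The stretch of SREBF2 is shown for its element, at 133 to 125 bases before the start, and those of HMGCS1, DHCR7 and STARD4 for their paired CCAAT boxes, because these 4 genes were all higher in shRRM2 and lower again in shRRM2/shp16. The last 3 were chosen after their values were seen. More than 1 CCAAT box also lay in the window of MSMO1, which had the same pattern and is not shown. The same held for MVK, FDPS, EBP, SCD and ACLY, all lower in shRRM2 than in control. It also held for MVD, NSDHL, HSD17B7 and MYLIP, which had no call there. Capitals mark the sterol element in SREBF2, whose own CCAAT box in reverse (attgg) begins 106 bases before the start, and the CCAAT boxes in either direction (CCAAT or ATTGG) in the others, each written 5′ to 3′ on the gene's strand.
SREBF2, chr22:41832942-41833010, plus strand: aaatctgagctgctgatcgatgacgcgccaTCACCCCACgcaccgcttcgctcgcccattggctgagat
HMGCS1, chr5:43313488-43313587, minus strand: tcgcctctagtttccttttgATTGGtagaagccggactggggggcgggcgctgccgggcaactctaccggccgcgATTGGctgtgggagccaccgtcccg
DHCR7, chr11:71448417-71448507, minus strand: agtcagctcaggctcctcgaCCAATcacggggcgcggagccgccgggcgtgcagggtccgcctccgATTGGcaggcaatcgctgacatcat
STARD4, chr5:111512641-111512716, minus strand: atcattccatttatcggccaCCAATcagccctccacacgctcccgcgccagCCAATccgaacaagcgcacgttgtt
A match is a run of letters and not a measured binding site. In shRRM2 against control, 8 of the 19 genes with a CCAAT box were higher and 6 lower, with a median log2 fold change of -0.09, while 2 of the 12 without were higher and 4 lower and their median was 0.02. Over all genes tested, 29.0% were higher and 31.8% lower in that comparison, and 31.9% higher and 29.1% lower in shRRM2/shp16 against shRRM2. Of the 19 genes with a box, 14 were lower and 3 higher in shRRM2/shp16 than in shRRM2, with a median log2 fold change of -0.34. Of the 12 without, 5 were lower and 5 were higher and the median was -0.15. The difference between these sets was not tested.

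The first comparison asked how RRM2 knockdown changed these genes. Of the 35, 11 were higher and 11 lower in shRRM2 than in control (31.4% each, edgeR adjusted p under 0.05 over 16561 genes), against 29.0% and 31.8% of all genes tested, so the number of changed genes was near the background. Their median log2 fold change was 0.01, against 0.00 over all genes. The groups' values did not overlap for 25 genes (71.4%), against 63.6% of all genes, and none changed by 2-fold or more, against 6.81% of all genes higher and 3.26% lower. The changes ran in both directions within the same pathway, with the regulators SREBF2 and STARD4 and 5 enzymes from squalene to cholesterol higher, and SCD, FASN and EBP lower. As in any bulk sample, fewer cells that express a gene and less of its RNA per cell cannot be told apart.

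**Figure D2:**
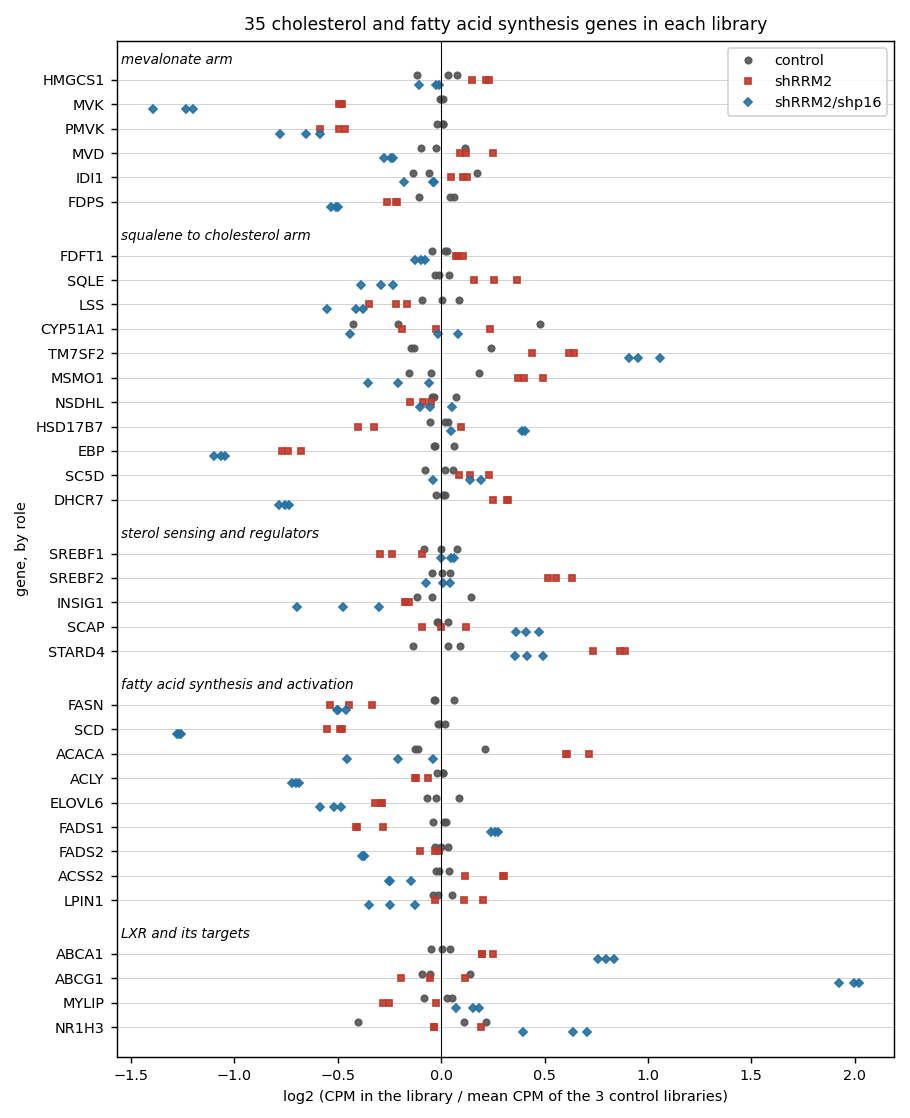
Level of each of the 35 genes in each of the 9 libraries, as log2 of its CPM over the mean CPM of the 3 control libraries (x axis), by role; each point is 1 library. STARD4 and SREBF2 stand to the right in shRRM2, MVK, EBP and SCD move left from control through shRRM2 to shRRM2/shp16, and ABCG1 stands to the far right in shRRM2/shp16.

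Among the regulators, STARD4 (chr5:111496033-111512590 on GRCh38, as are the positions below, from GENCODE 29), which carries cholesterol between membranes and is a known SREBP2 target, had 21.0, 23.6 and 24.6 CPM in control and 42.7, 38.4 and 42.1 in shRRM2. Every shRRM2 library lay above every control library, and STARD4 rose by a log2 fold change of 0.84 ± 0.06 (SE, n = 3 a group, edgeR adjusted p = 1.6e-15), the largest increase of the 35. SREBF2 (chr22:41833079-41907308) had 79.2, 74.6 and 77.1 CPM in control and 110, 119 and 113 in shRRM2, again with no overlap. Its increase was 0.57 ± 0.04 (SE, edgeR adjusted p = 4.9e-16). SREBF1 moved the other way, from a mean of 45.5 to 39.4 CPM (-0.21 ± 0.05, edgeR adjusted p = 0.0011). INSIG1 and SCAP did not pass the test, with differences of -0.16 (95% confidence interval -0.37 to 0.05) and 0.01 (-0.10 to 0.13), although INSIG1 passed without control replicate a (-0.22, edgeR adjusted p = 0.036).

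In the mevalonate arm 1 of 6 genes was higher and 3 were lower (16.7% and 50%, against 29.0% and 31.8% of all genes tested). PMVK (chr1:154924734-154936991), the phosphomevalonate kinase, had 17.2, 16.8 and 17.2 CPM in control and 11.4, 12.1 and 12.3 in shRRM2. No library of either group overlapped the other, and PMVK fell by 0.51 ± 0.08 on the log2 scale (SE, edgeR adjusted p = 6.4e-07). The kinase before it, MVK, fell by 0.49 and FDPS by 0.23. HMGCS1, the HMG-CoA synthase at the entry of the arm, rose by 0.20 (edgeR adjusted p = 0.00995), a call lost without control replicate b (log2 fold change 0.15, edgeR adjusted p = 0.075) and with DESeq2 (0.18, adjusted p = 0.088). MVD and IDI1 did not pass, at 0.15 and 0.10, but MVD passed without control replicate a (0.22) and with at least 10 counts in every library (0.18), and IDI1 without control replicate b (0.19).

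From squalene to cholesterol 5 of 11 genes were higher and 2 were lower (45.5% and 18.2%, against 29.0% and 31.8% of all genes tested). EBP (chrX:48521158-48528716), the sterol isomerase of the late pathway, had 23.5, 22.0 and 22.1 CPM in control and 14.1, 13.2 and 13.5 in shRRM2. All shRRM2 values were well under the control values, and EBP fell by 0.73 ± 0.07 on the log2 scale (SE, edgeR adjusted p = 1.4e-11), the largest decrease of the 35. TM7SF2 (chr11:65111845-65116384), a sterol reductase, had 3.6, 3.63 and 4.71 CPM in control and 6.22, 6.11 and 5.39 in shRRM2, an increase of 0.58 ± 0.14 (SE, edgeR adjusted p = 0.00027). The other increases were in MSMO1, a methylsterol oxidase (0.43), DHCR7, the reductase of the last step (0.30), SQLE, the squalene epoxidase (0.27), and SC5D, a sterol desaturase (0.16). The call on SC5D (edgeR adjusted p = 0.0478) was lost without control replicate a (0.11) or c (0.16), without shRRM2 replicate a (0.12) or b (0.17), and without shRRM2/shp16 replicate b (0.16), with adjusted p between 0.0503 and 0.201. It was also lost with DESeq2 (0.14, adjusted p = 0.22), with no filter on low counts (0.12, edgeR adjusted p = 0.246) and with a replicate block (0.15, edgeR adjusted p = 0.0505). LSS, the lanosterol synthase, fell by 0.25, and FDFT1, CYP51A1, NSDHL and HSD17B7 did not pass the test. FDFT1, at 0.08, passed with RLE size factors (0.10, edgeR adjusted p = 0.0404) and with at least 10 counts in every library (0.12, edgeR adjusted p = 0.0121).

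Among the fatty acid genes 2 of 9 were higher and 5 were lower (22.2% and 55.6%, against 29.0% and 31.8% of all genes tested). SCD (chr10:100347124-100364834), which puts the first double bond into saturated fatty acids, had 343, 345 and 350 CPM in control and 248, 246 and 236 in shRRM2. The groups were far apart relative to their spread, and SCD fell by 0.51 ± 0.03 on the log2 scale (SE, edgeR adjusted p = 2.7e-19). FASN fell by 0.44, the delta-5 desaturase FADS1 by 0.37, the elongase ELOVL6 by 0.30 and ACLY by 0.10. ACACA (chr17:37084988-37406818) had 1.59, 2.01 and 1.61 CPM in control and 2.86, 2.65 and 2.64 in shRRM2, an increase of 0.65 ± 0.20 (SE, edgeR adjusted p = 0.00507) on these few counts. With both of its identifiers summed the increase was 0.58, and with DESeq2 its adjusted p was 0.0607. ACSS2, which makes acetyl-CoA from acetate, rose by 0.24 with a DESeq2 adjusted p of 0.0512, and FADS2 and LPIN1 did not pass, FADS2 passing only with no filter on low counts (-0.09) and LPIN1 passing only without shRRM2 replicate a (0.16) or with at least 10 counts in every library (0.13).

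In the LXR branch 1 of 4 genes was higher and none lower (25% and 0%, against 29.0% and 31.8% of all genes tested). ABCA1 (chr9:104781002-104928237), which exports cholesterol to apolipoproteins, had 146, 141 and 150 CPM in control and 167, 167 and 173 in shRRM2, an increase of 0.22 ± 0.03 (SE, edgeR adjusted p = 4.9e-07). The control and shRRM2 values of ABCA1 did not overlap. ABCG1, MYLIP, a ubiquitin ligase for lipoprotein receptors, and NR1H3, which encodes LXR alpha, differed by -0.04, -0.19 and 0.03, within the spread of their libraries.

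**Figure D3:**
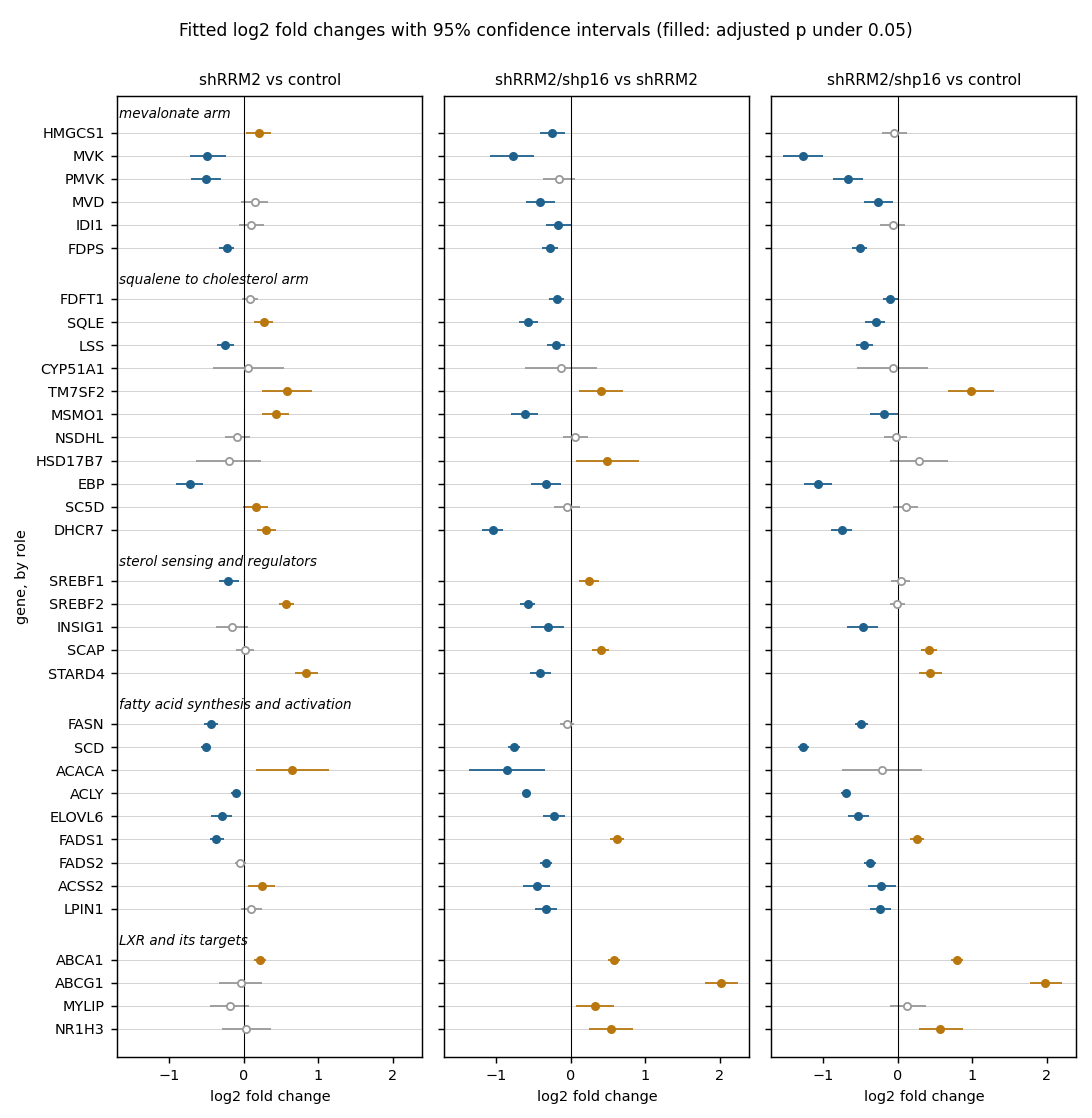
Fitted log2 fold change (x axis) of each of the 35 genes in the 3 comparisons with its 95% confidence interval, by role. Filled points passed adjusted p under 0.05, open grey points did not, and the intervals of some filled points reach 0. In shRRM2/shp16 against shRRM2 the points of both cholesterol arms and the fatty acid group lie mostly left of 0 and all 4 LXR genes lie right of it.

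The second comparison set cells with both hairpins against cells with the RRM2 hairpin alone. RRM2 itself averaged 62.1 CPM in shRRM2 and 177 in shRRM2/shp16, so the p16 hairpin and the higher RRM2 level cannot be told apart. This comparison shares the shRRM2 libraries with the first, so a high or low shRRM2 value enters both with opposite signs. Of the 35 genes, 21 were lower and 9 higher in shRRM2/shp16 than in shRRM2 (60% and 25.7%), against 29.1% lower and 31.9% higher over all genes. The median log2 fold change was -0.23, against 0.01 over all genes. Values did not overlap for 30 genes (85.7%), against 64.7% of all genes. By at least 2-fold, 1 gene was lower (DHCR7) and 1 higher (ABCG1), against 6.58% and 5.19% of all genes. Both arms of cholesterol synthesis together had 11 of 17 genes lower and 2 higher, the fatty acid group had 7 of 9 lower and 1 higher, and the LXR branch had 4 of 4 higher.

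The largest decrease was in DHCR7 (chr11:71428193-71452868), with 43.7, 41.8 and 43.9 CPM in shRRM2, 20.8, 21.1 and 20.4 in shRRM2/shp16 and 34.5, 35.3 and 35.6 in control. Its level in shRRM2/shp16 was the lowest of the 3 groups, with no overlap, and it fell by 1.05 ± 0.06 on the log2 scale against shRRM2 (SE, n = 3 a group, edgeR adjusted p = 2.2e-20), 2.07-fold. MSMO1 fell by 0.62, SQLE by 0.57, EBP by 0.34, LSS by 0.20 and FDFT1 by 0.19. TM7SF2 rose by 0.40 (edgeR adjusted p = 0.00324). HSD17B7 rose by 0.49 on 40 to 76 counts per library, and this call was lost without shRRM2 replicate b or c or shRRM2/shp16 replicate a (0.39 to 0.43). The call was also lost with DESeq2 (0.49, adjusted p = 0.0874), and the HSD17B7 values of the groups overlapped. CYP51A1, NSDHL and SC5D did not pass the test.

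In the mevalonate arm 5 of 6 genes were lower and none higher (83.3% and 0%, against 29.1% and 31.9% of all genes tested). MVK (chr12:109573255-109598117), the mevalonate kinase, had 7.24, 7.27 and 7.29 CPM in shRRM2, 4.44, 4.33 and 3.87 in shRRM2/shp16 and 10.2, 10.2 and 10.1 in control. The 3 groups formed 3 separate steps, and MVK fell by 0.78 ± 0.12 on the log2 scale from shRRM2 to shRRM2/shp16 (SE, edgeR adjusted p = 2.8e-07). MVD, the decarboxylase, fell by 0.41, FDPS by 0.28, HMGCS1 by 0.25 and the isomerase IDI1 by 0.17. The IDI1 call (edgeR adjusted p = 0.0285) was lost without shRRM2 replicate a or c or shRRM2/shp16 replicate a, at -0.12 to -0.17. It was also lost with DESeq2 (adjusted p = 0.119) and with no filter on low counts (edgeR adjusted p = 0.0647). PMVK differed by -0.16 (95% confidence interval -0.37 to 0.06).

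All 5 regulators passed the test, 3 lower and 2 higher (60% and 40%, against 29.1% and 31.9% of all genes tested). SREBF2 had 79.2, 73.2 and 77.3 CPM in shRRM2/shp16, under its 110 to 119 CPM in shRRM2 and overlapping the 74.6 to 79.2 CPM of control. It fell by 0.58 ± 0.04 on the log2 scale against shRRM2 (SE, edgeR adjusted p = 2.3e-16), while its difference from control was -0.01 (95% confidence interval -0.11 to 0.09). STARD4 fell by 0.41 and INSIG1, itself a known SREBP target, by 0.31. The INSIG1 call was lost without shRRM2/shp16 replicate a (-0.21, edgeR adjusted p = 0.0543). SREBF1 rose by 0.24 and SCAP, the escort of SREBPs to the Golgi, by 0.40.

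Of the fatty acid genes, ACACA had 1.27, 1.69 and 1.5 CPM in shRRM2/shp16 against 2.64 to 2.86 in shRRM2, a decrease of 0.86 ± 0.21 on the log2 scale (SE, edgeR adjusted p = 0.00041) that was 0.81 with both identifiers summed. SCD fell by 0.76, ACLY by 0.60, ACSS2 by 0.46, the phosphatidate phosphatase LPIN1 by 0.34, the delta-6 desaturase FADS2 by 0.33 and ELOVL6 by 0.23. FADS1 (chr11:61799625-61829318) went the other way. It had 80.2, 79.8 and 87.3 CPM in shRRM2 and 129, 125 and 127 in shRRM2/shp16, an increase of 0.62 ± 0.04 (SE, edgeR adjusted p = 3.0e-18) to above the 103 to 108 CPM of control. FADS1 and FADS2 overlap on opposite strands, and the strand setting of the counts is not given in the sources used here. FASN differed by -0.05 (95% confidence interval -0.14 to 0.04) and passed without shRRM2 replicate c (-0.10).

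All 4 genes of the LXR branch were higher, against 31.9% of all genes tested. ABCG1 (chr21:42199689-42297244), which exports cholesterol to lipoprotein particles, had 6.60, 5.88 and 5.34 CPM in shRRM2 and 24.4, 24.7 and 23.2 in shRRM2/shp16. The control libraries, at 5.87, 6.71 and 5.72, overlapped the shRRM2 values, and all were far under those of shRRM2/shp16. ABCG1 rose by 2.02 ± 0.09 on the log2 scale (SE, edgeR adjusted p = 4.2e-23), 4.07-fold. ABCA1 had 247, 260 and 253 CPM in shRRM2/shp16, above all values of both other groups, and rose by 0.58 ± 0.03 against shRRM2 (SE, edgeR adjusted p = 5.4e-20). NR1H3 rose by 0.54, from a mean of 6.25 to 9.08 CPM, and MYLIP by 0.33 (edgeR adjusted p = 0.00707, DESeq2 adjusted p = 0.0579).

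**Figure D4:**
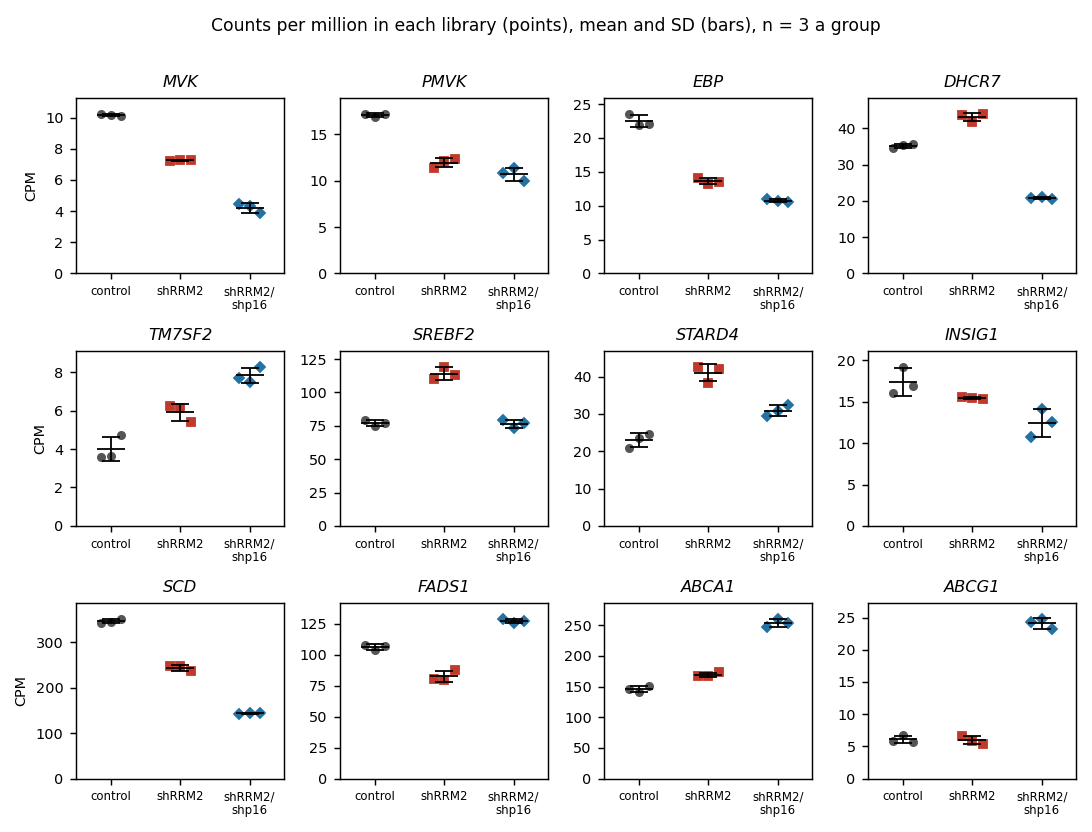
CPM (y axis, from 0) in each library (points) with the mean and SD of the 3 libraries of each group (bars) for 12 of the genes given in full. SREBF2 and STARD4 are highest in shRRM2, MVK, EBP and SCD step down through the groups, DHCR7 is lowest in shRRM2/shp16, and ABCG1 is near 6 CPM in control and shRRM2 and near 24 CPM in shRRM2/shp16.

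In the authors' deposited table of this same comparison, 15 of the 35 genes are marked significant, 10 lower and 5 higher, against 7.77% of 64235 genes. Most of those 64235 genes have too few reads to be tested, since 16561 passed the filter on low counts here. All 35 genes passed it, so the 2 shares cannot be compared directly. The share over all genes was not split by direction. The 5 higher are SCAP and all 4 LXR branch genes, with log2 fold changes in the authors' deposited table of 0.5718 for SCAP, 0.5455 for ABCA1, 1.877 for ABCG1, 0.313 for MYLIP and 0.7491 for NR1H3. The 10 lower in the authors' deposited table are MVK, SQLE, MSMO1, EBP, DHCR7, SREBF2, INSIG1, SCD, ACACA and ACLY. For FADS1, the authors' deposited table gives 0.3881 with a q of 0.4948.

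The third comparison set cells with both hairpins against control. It shares libraries with each of the others and is given as levels against the starting state. Of the 35 genes, 18 were lower and 7 higher (51.4% and 20%), against 32.4% and 30.0% of all genes, with a median log2 fold change of -0.19 against 0.01. Values did not overlap for 26 genes (74.3%), against 66.2% of all genes. By at least 2-fold, 3 genes were lower (MVK, SCD and EBP) and 1 was higher (ABCG1), against 6.0% and 6.59% of all genes. The summed level of the 9 fatty acid genes was 1662 to 1700 CPM in control, 1409 to 1450 in shRRM2 and 1102 to 1116 in shRRM2/shp16. That of the 4 LXR genes was 163 to 168, 187 to 191 and 290 to 303 CPM. ABCA1 made up most of the LXR sum, with means of 146, 169 and 253 CPM. ABCG1, MYLIP and NR1H3 had no call in shRRM2 against control. ACLY, SCD, FASN and FADS2 made up most of the fatty acid sum.

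SCD had 143, 145 and 143 CPM in shRRM2/shp16, against 343 to 350 in control. Its level stepped down through the 3 groups without overlap, by 1.27 ± 0.03 on the log2 scale from control to shRRM2/shp16 (SE, edgeR adjusted p = 1.2e-33), or 2.41-fold. MVK was lower than control by the same amount, at -1.27 ± 0.11 (SE, edgeR adjusted p = 9.7e-14). EBP had 10.9, 10.8 and 10.5 CPM in shRRM2/shp16 and was lower than control by -1.07 ± 0.08 (SE, edgeR adjusted p = 1.3e-16). DHCR7 (-0.75), ACLY (-0.70), PMVK (-0.67, with 10.8, 11.4 and 9.94 CPM in shRRM2/shp16), ELOVL6 (-0.53), FDPS (-0.51), FASN (-0.49) and LSS (-0.45) were also lower.

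INSIG1 (chr7:155297776-155310235), which retains SCAP in the endoplasmic reticulum, had 16, 19.2 and 16.9 CPM in control, 15.6, 15.5 and 15.4 in shRRM2 and 10.7, 14.1 and 12.5 in shRRM2/shp16. Its SD was 1.65 CPM in control, 0.12 in shRRM2 and 1.69 in shRRM2/shp16. INSIG1 was lower in shRRM2/shp16 than in control by -0.47 ± 0.09 (SE, edgeR adjusted p = 7.3e-06). TM7SF2, with 7.71, 7.47 and 8.28 CPM in shRRM2/shp16, was higher than control by 0.99 ± 0.13 (SE, edgeR adjusted p = 3.9e-09). It was the exception among the cholesterol enzymes, where 10 of 17 were lower and 1 higher (58.8% and 5.88%, against 32.4% and 30.0% of all genes). ABCG1 was higher by 1.98 ± 0.09 (SE, edgeR adjusted p = 1.5e-23) and ABCA1 by 0.80 ± 0.03 (SE, edgeR adjusted p = 5.1e-25). STARD4, with 29.5, 30.8 and 32.4 CPM, stayed above control by 0.43, NR1H3 by 0.57, SCAP by 0.42 and FADS1 by 0.26. The decreases of FDFT1 (-0.10), MSMO1 (-0.19), ACSS2 (-0.22) and MVD (-0.26) were each lost without at least 1 library. For FDFT1 these were control replicate a or b or any shRRM2/shp16 replicate (-0.08 to -0.10). For MSMO1 they were control replicate b and shRRM2/shp16 replicates a and c (-0.09 to -0.18), for ACSS2 control replicate a and shRRM2/shp16 replicates b and c (-0.19), and for MVD control replicate a (-0.18). FDFT1 and MSMO1 also lost the call with DESeq2 (adjusted p = 0.0522 and 0.0799). Both lost it with at least 10 counts in every library (edgeR adjusted p = 0.0782 and 0.0553). FDFT1 lost it with the 6 compared libraries alone too (edgeR adjusted p = 0.052). HSD17B7 and SC5D, at 0.28 and 0.11, passed only without shRRM2/shp16 replicate b (0.40) and a (0.18).

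Other genes of the same pathways were read from further lists. Among 14 other proteins of SREBP processing and lipid synthesis, 3 were higher and 8 lower in shRRM2 than in control (21.4% and 57.1%, against 29.0% and 31.8% of all genes tested). In shRRM2/shp16 against shRRM2, 7 were higher and 5 lower (50% and 35.7%, against 31.9% and 29.1%). FADS3, a relative of FADS1, averaged 22.3, 49.6 and 29.7 CPM in control, shRRM2 and shRRM2/shp16, a change of 1.16 and then of -0.74. ERLIN1, which helps retain SREBP complexes in the endoplasmic reticulum, averaged 94.0, 43.1 and 70.5 CPM, and TMEM97, a sterol-responsive membrane protein, 29.3, 13.4 and 13.4. ACACB, the acetyl-CoA carboxylase at mitochondria, averaged 12.8, 9.84 and 43.4 CPM and rose by 2.14 ± 0.07 from shRRM2 to shRRM2/shp16 (SE, edgeR adjusted p = 2.1e-27).

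Of 15 tested genes of fatty acid elongation and activation, 4 were higher and 6 lower in shRRM2 than in control (26.7% and 40%, against 29.0% and 31.8% of all genes tested). Among the shRRM2/shp16 libraries, 6 were higher and 6 lower than in shRRM2 (40% each, against 31.9% and 29.1%). ACSL4, an acyl-CoA synthetase that prefers arachidonic acid, had 139, 147 and 144 CPM in control and 194, 184 and 187 in shRRM2, and between 1136 and 1173 in shRRM2/shp16. The increase from shRRM2 was 2.62 ± 0.03 on the log2 scale (SE, edgeR adjusted p = 9.6e-46). ELOVL1, an elongase of saturated very long chains, fell by 0.67 in that comparison, and the thioesterase ACOT7 by 0.75.

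Of 11 genes of sterol uptake, storage and lysosomal export, 7 were higher and 1 lower in shRRM2 than in control (63.6% and 9.09%, against 29.0% and 31.8% of all genes tested). Against shRRM2, the shRRM2/shp16 group had 2 higher and 9 lower (18.2% and 81.8%, against 31.9% and 29.1%). LIPA, the acid lipase that frees cholesterol from its esters in lysosomes, averaged 35.6, 49.0 and 26.5 CPM in control, shRRM2 and shRRM2/shp16, a change of 0.46 and then of -0.89. SCARB1, a receptor for high-density lipoprotein, averaged 22.7, 35 and 23.5 CPM. NPC1, which moves cholesterol out of lysosomes, rose in both steps, with averages of 99.1, 122 and 162 CPM, and SOAT1, which esterifies cholesterol for storage, fell in both, with 115, 85 and 69.0.

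Of 7 tested LXR partners and other LXR targets, none was higher and 2 were lower in shRRM2 than in control (0% and 28.6%, against 29.0% and 31.8% of all genes tested). In shRRM2/shp16 against shRRM2, 5 were higher and none lower (71.4% and 0%, against 31.9% and 29.1%). PLTP, a phospholipid transfer protein, had 54.6, 53.8 and 55.2 CPM in control, 29.2, 30.5 and 27.1 in shRRM2 and 81.3, 76.9 and 76.5 in shRRM2/shp16. It was lowest in shRRM2 and highest in shRRM2/shp16 without overlap, with an increase of 1.44 ± 0.05 between them (SE, edgeR adjusted p = 2.3e-27). SMPDL3A, a phosphodiesterase induced by LXR, had 17.8, 16.7 and 17.2 CPM in shRRM2 and 38.2, 40.6 and 42.1 in shRRM2/shp16 (1.23 ± 0.07, SE, edgeR adjusted p = 5.8e-20). RXRA, a partner receptor of LXR, averaged 91.6 CPM in control, 62.1 in shRRM2 and 61.6 in shRRM2/shp16.

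**Figure D5:**
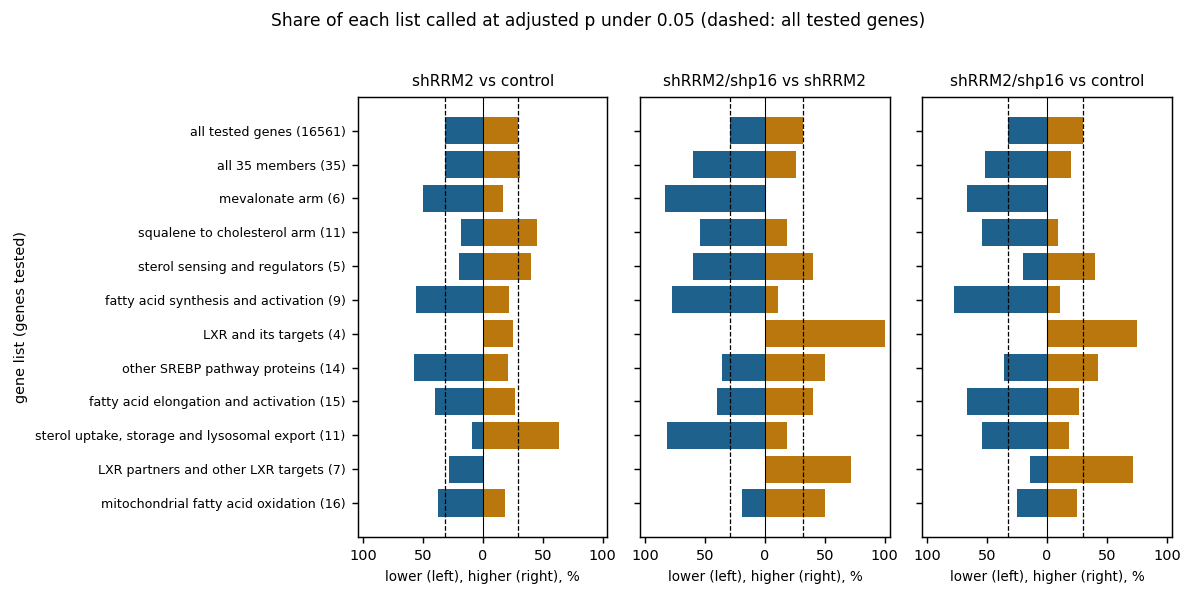
Share of the tested genes of each list (y axis, with the number tested) that was lower (bars to the left) or higher (bars to the right) at adjusted p under 0.05 in each comparison, in percent; dashed lines mark the shares over all tested genes. In shRRM2/shp16 against shRRM2 the 35 genes reach 60% lower, against 29.1% of all genes, and all 4 LXR genes are higher.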

How the data were processed

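RNA of 9 IMR90 libraries was rRNA-depleted and sequenced with a strand-marking kit, per the labels' protocols. The authors deposited raw read counts per Ensembl gene, whose layout is that of HTSeq, a log2 RPKM table, and a table of their own shRRM2/shp16 against shRRM2 comparison with FPKM values, log2 fold changes, a test score and p-values and q-values. TopHat2 2.0.9, Cufflinks 2.0.2, Cuffdiff and GRCh38 are named in the submitters' processing notes. The annotation and the strand setting are not given in the sources used here.

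The test of the counts was that of edgeR 4.0.16 (R 4.3.3), with TMM factors, filterByExpr and the quasi-likelihood test on all 9 libraries in 1 fit with 6 residual degrees of freedom. Tests were two-sided with Benjamini-Hochberg adjustment over the 16561 genes tested, which hold 99.8% of the counts. The alternatives were DESeq2 1.42.0, RLE size factors, other filters, the 6 compared libraries alone, a replicate block, a 2-fold threshold and leaving out each library. The SE of a log2 fold change was taken as its absolute value over the square root of the test's F value. The 95% confidence intervals used this SE and 6 degrees of freedom. The test also pools the spread over genes, so its p-values and these intervals need not match, and intervals of some called genes reach 0. CPM is the count over the TMM-scaled library size. No 2 libraries of a group agreed within sampling noise (chi-square per degree of freedom 1.45 to 2.97). Tally lines that name no gene were left out of library sizes. In the authors' deposited log2 RPKM table, 8 of the 9 columns implied gene lengths within 2% of those from control replicate a for all of 9863 genes with over 100 counts in every library. The column of shRRM2 replicate c did so for 12.2% of them and was not used. The edgeR step was run on simulated counts with a fixed spread and few changed genes, unlike these data. That run checks the code and not the calls made here.

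The 35 genes and all lists were chosen with earlier results of these data known. Named in full were, in each comparison, the gene of each role with the largest change among those called without overlap, and the 3 highest and 3 lowest. From the other lists at most 2 per direction were named. The 3 stretches with CCAAT boxes fell outside the rule for printed sequences. Positions are from GENCODE 29 (GRCh38). Columns of per-sample values that match no sample: 0.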

Additional observations from a re-analysis of the deposited data

How the results depend on the processing

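No called direction of the 35 genes reversed in the alternatives run. Of 1578 alternative values for single genes, 41 lost a call and 12 gained a call, and 84 of 105 gene results did neither. With DESeq2 the genes higher in shRRM2 than in control were 7 in place of 11, and the cause was not tested. DESeq2 also called fewer of all genes in that comparison. It called 8455, of which 44.0% were higher, while edgeR called 4810 higher and 5269 lower. A threshold of at least 2-fold, which by construction calls fewer genes, left 0 higher and 0 lower in shRRM2 against control, 1 higher and 1 lower in shRRM2/shp16 against shRRM2, and 1 higher and 3 lower in shRRM2/shp16 against control. Leaving out each library in turn gave 10 to 11 higher and 11 to 12 lower in the first comparison, 8 to 9 and 19 to 21 in the second, and 7 to 8 and 15 to 18 in the third. Correlations of deviations from the group means between same-lettered libraries ran from -0.117 to 0.234. Libraries with different letters were not compared, so whether a letter marks a shared culture or day cannot be told. With a replicate block the counts were 10 higher and 11 lower, 9 and 21, and 7 and 18, and only SC5D in shRRM2 against control lost its call (edgeR adjusted p = 0.0505). Over all genes, DESeq2 called 8455, 8540 and 8833 in the 3 comparisons. Depth limits ACACA, CYP51A1 and HSD17B7, which had fewer than 80 counts in every library.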

Other observations

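Fatty acids are broken down in mitochondria by beta-oxidation, which CPT1 enzymes gate by passing acyl chains to carnitine. Of 16 tested genes of this pathway, 3 were higher and 6 lower in shRRM2 than in control (18.8% and 37.5%, against 29.0% and 31.8% of all genes tested). In shRRM2/shp16 against shRRM2, 8 were higher and 3 lower (50% and 18.8%, against 31.9% and 29.1%). CPT1A, the form known from liver and fibroblasts, had 27.9, 25.0 and 30.0 CPM (counts scaled to library size) in control, 31.7, 34.1 and 33.4 in shRRM2 and 76.7, 70.9 and 71.5 in shRRM2/shp16. All shRRM2/shp16 values lay above all others, with a log2 fold change of 1.14 ± 0.05 against shRRM2 (SE, n = 3 a group, edgeR adjusted p = 1.2e-22). CPT1C, a form known from neurons, rose by 0.83 from shRRM2 to shRRM2/shp16. The electron transfer genes ETFA and ETFDH fell by 0.35 and 0.24 in that comparison. HADH, the dehydrogenase for short chains, averaged 25.9 CPM in control and 11.1 in both hairpin groups, a difference of -1.22 in each.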
